A study of Mus musculus with 8 samples.

Results

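The genes described here are the aminoacyl-tRNA synthetases and the genes of the ATF4 stress response, 49 genes chosen by name and found by their symbols in the count tables of WT and *Trim28*-deleted Th17 cells. All 49 had reads in both libraries, out of 13704 genes with reads in at least 1 of them. The list holds 20 cytosolic and 11 mitochondrial tRNA synthetases, 3 regulators of eIF2α phosphorylation, 4 stress transcription factors, 3 regulators encoded by ATF4 target genes, and 8 enzymes of amino acid and one-carbon synthesis. Naive CD4+ T cells of C57BL/6 mice were turned into Th17 cells by TGF-β (0.5 ng/ml) together with IL-6 (20 ng/ml), and after 3 days the cells of both groups were re-stimulated with anti-CD3 before their RNA was taken. The WT group is labelled wild type. The KO group is labelled TRIM28fl/flxCD4cre: its *Trim28* alleles are flanked by loxP sites and are removed by a Cre driven by the *Cd4* promoter, which acts in developing T cells before the culture begins. There was 1 RNA-seq library per genotype, so no difference given here has a replicate check, and the number and age of the mice behind each library are not given in the sources used here. The comparison asks which genes differ in mRNA level between Th17 cells with and without TRIM28, a chromatin-bound transcriptional cofactor.

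Aminoacyl-tRNA synthetases attach each amino acid to its tRNA and so feed the ribosome. Cytosolic and mitochondrial protein synthesis mostly use separate enzymes, the latter named with a final 2, whereas *Gars* and *Kars* encode both forms. When uncharged tRNAs accumulate, the kinase GCN2 (*Eif2ak4*) phosphorylates the initiation factor eIF2α; PERK (*Eif2ak3*) does the same when the endoplasmic reticulum is overloaded. General translation then slows while the mRNA of *Atf4* is translated better, and the ATF4 protein activates genes for amino acid synthesis, amino acid import and tRNA charging. In activated T cells, which grow and divide fast, serine synthesis and mitochondrial one-carbon metabolism supply nucleotides and other products. ATF4 is controlled to a large part through translation of its mRNA and XBP1 through splicing, and counts of reads per gene show neither.

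ATF4 and its partners of the C/EBP family bind a composite element whose core is searched here as TGATGNAA on both strands, where N is any base. It was looked for in the RefSeq promoter windows of GRCm38.p6, which run from 250 bases before to 50 bases after an annotated start of each gene. A window was found for 41 of the 49 members, all but *Cars*, *Hars*, *Hars2*, *Lars*, *Nars*, *Rars*, *Vars* and *Wars*. The letters occurred in a window of 9 of these 41 genes (22.0%), as against 4.51% of all 27025 genes with a window. Many members were chosen by name as genes of the ATF4 response, so the higher share is not an independent result. The 9 were 5 cytosolic synthetase genes (*Aars*, *Gars*, *Iars*, *Tars* and *Yars*), *Trib3*, *Chac1*, *Asns* and *Pycr1*, and no mitochondrial synthetase gene was among them. A core of the element bound by XBP1 and ATF6, TGACGTGG on both strands, occurred in none of the 41 members and in 0.714% of all genes. A match is only a match of letters and was not tested as a binding site. The matches of 8 of these genes are shown because an element of this kind is the known route by which ATF4 reaches its target genes. Each is printed on the strand of its gene with 10 bases on either side, and the capitals mark the core; where the core lies on the opposite strand the capitals show its reverse complement. The sequences lie at chr6:7693215-7693242 for *Asns* (23 bases before its start), chr2:152344029-152344056 for *Trib3* (14 bases after its start), chr11:120643834-120643861 for *Pycr1*, chr2:119351039-119351066 for *Chac1*, chr6:55037961-55037988 for *Gars*, chr4:129189896-129189923 for *Yars*, chr13:49682127-49682154 for *Iars* and chr15:11399656-11399683 for *Tars*.
Asns: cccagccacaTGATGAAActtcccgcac
Trib3: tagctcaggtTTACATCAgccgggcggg
Pycr1: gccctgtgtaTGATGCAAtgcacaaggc
Chac1: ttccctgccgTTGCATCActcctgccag
Gars: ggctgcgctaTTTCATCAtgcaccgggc
Yars: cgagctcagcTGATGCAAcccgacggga
Iars: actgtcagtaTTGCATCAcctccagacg
Tars: aggagtcccgTTGCATCAgctggttagc

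The WT library held 6.65 M uniquely assigned reads and the KO library 6.19 M (M, 1000000 reads). *Trim28*, the deleted gene, had 4485 reads in WT and 180 in KO, a log2 ratio of -4.53. The helper T-cell markers *Cd4*, *Cd3e*, *Cd3d*, *Cd3g*, *Cd28* and *Cd5* all had reads (32101 and 25858 in sum), and the 6 Th17 markers had 7576 reads in the WT and 2033 in the KO library. B-cell markers summed to 83 and 44 reads over 5 genes, CD8 T and NK cell markers to 53 and 29 (3 of 5 were listed in neither library, *Ncr1* among them), and macrophage and dendritic cell markers to 23 and 21 (5 of 8 names were listed in neither library, *Csf1r* and *Lyz2* among them). Their part in the results was not tested. In bulk RNA, fewer cells of a type and less RNA per cell cannot be told apart.

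Levels are given as reads and as CPM, the reads per 1000000 reads of the library. The log2 ratio (log2 fold change) of a gene is the log2 of its KO level over its WT level, with 0.5 added to each count. The 95% interval beside it is an exact (Clopper-Pearson) one from the share of a gene's reads that came from the KO library, and it covers counting error only. Of the 49 members, 47 had at least 10 reads over both libraries; *Farsb* and *Chac1* did not. Among these 47, 2 genes, *Nars2* and *Trib3*, were higher in the KO library by at least 2-fold, where 3.75% of all 10881 genes with as many reads were. Only *Eif2ak4* was lower by at least 2-fold, where 7.94% of all genes were. These shares of the members are close to or below those of all genes. The median log2 ratio of the 47 genes was 0.13, and that of all genes was -0.02. The interval lay above 0 for 16 members (34.0%) and below 0 for 7 (14.9%), where it did for 23.5% and 25.0% of all genes. The other 24 of the 47 had an interval that includes 0. An interval is narrower for a gene with more reads, and the shares of intervals given here are not matched for reads.

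**Figure D1:**
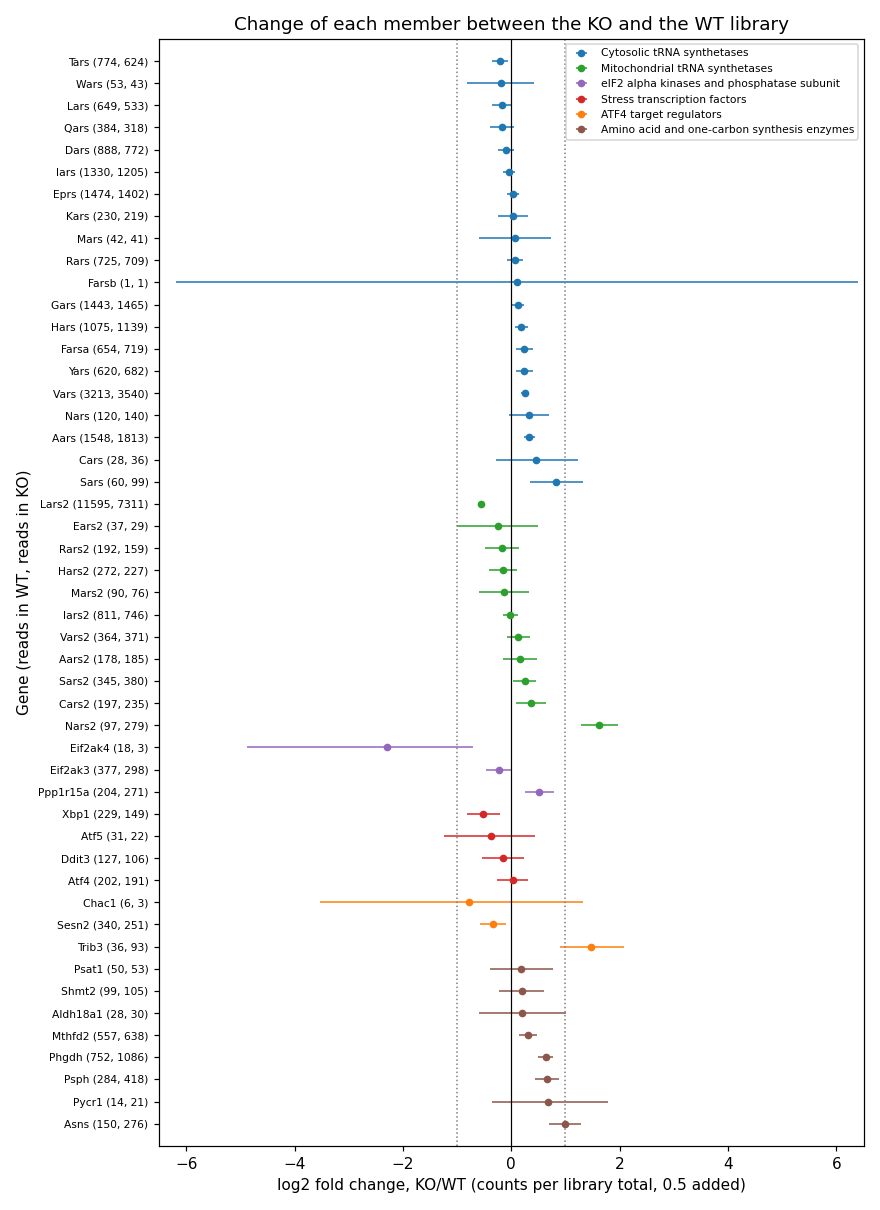
Log2 ratio (KO/WT) of each of the 49 members, grouped by role and ordered within each role, with the reads in the WT and the KO library beside each name. Points are log2 ratios, bars are exact 95% counting intervals and dotted lines mark a 2-fold change; *Nars2* (1.62) and *Trib3* (1.46) lie past the upper line and *Eif2ak4* (-2.30) past the lower one, while 19 cytosolic synthetases with at least 10 reads lie between the lines.

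No cytosolic tRNA synthetase gene differed by 2-fold. Over the 19 with at least 10 reads, log2 ratios ran from -0.21 (*Tars*) to 0.82 (*Sars*), with a median of 0.07. As a group the 20 genes took 0.230% of the WT reads (15311 reads, exact 95% interval 0.227% to 0.234%) and 0.251% of the KO reads (15500 reads, interval 0.247% to 0.255%). *Vars*, the valine enzyme, had the most reads, 3213 (483 CPM) in WT and 3540 (572 CPM) in KO, with a log2 ratio of 0.24 (95% interval 0.18 to 0.31). *Aars*, the alanine enzyme, had 1548 reads in WT and 1813 in KO, a log2 ratio of 0.33 (interval 0.23 to 0.43). For these 2 deeply counted genes the KO library was higher by more than the counting error and by less than 2-fold. With the length correction *Aars* stood at 0.61 and *Vars* at 0.34, each above its uncorrected interval. *Sars*, the serine enzyme, stood highest with 60 and 99 reads, a log2 ratio of 0.82 with a wide interval of 0.35 to 1.31.

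In mammals 8 of the cytosolic members, *Eprs*, *Iars*, *Lars*, *Mars*, *Qars*, *Rars*, *Kars* and *Dars*, are bound together in the multisynthetase complex. This split was made after the values were known and is only a description. Their log2 ratios ran from -0.18 (*Lars*) to 0.07 (*Rars*), with a median of -0.003, and their summed reads were 5722 and 5199. With a correction for transcript length, described further on, the range widened to between -0.24 (*Dars*) and 0.30 (*Eprs*). The interval of *Dars* then lay below 0 (-0.38 to -0.10) and that of *Eprs* above 0 (0.20 to 0.41). *Eprs*, the enzyme for glutamate and proline, had 1474 reads in WT and 1402 in KO, and *Iars*, the isoleucine enzyme, 1330 and 1205. *Rars*, the arginine enzyme, had 725 and 709 reads, *Dars*, the aspartate enzyme, 888 and 772, and *Qars*, the glutamine enzyme, 384 and 318. *Kars* (lysine) had 230 and 219 reads and *Mars* (methionine) had 42 and 41. *Lars*, the leucine enzyme, was the only one of the 8 whose uncorrected interval excluded 0 (649 and 533 reads, interval -0.35 to -0.01). This was lost with TMM normalization and with the length correction (-0.10). The other 11 cytosolic genes with at least 10 reads had a median of 0.24, and their interval lay above 0 in 7 of them (*Aars*, *Farsa*, *Gars*, *Hars*, *Sars*, *Vars* and *Yars*) and below 0 in 1 (*Tars*, the threonine enzyme, 774 and 624 reads), where 23.5% and 25.0% of all genes had such intervals. With the length correction the intervals of *Gars* (0.01), *Hars* (0.03) and *Tars* (-0.12) include 0, which leaves 5 above 0 and 0 below. Of all genes, 23.5% and 20.9% had such intervals with this correction. The shares of all genes include genes with as few as 10 reads, whose intervals are wide. *Gars*, the glycine enzyme, and *Hars*, the histidine enzyme, had 1443 and 1465 reads and 1075 and 1139 reads, log2 ratios of 0.13 and 0.19. *Yars*, the tyrosine enzyme, had 620 and 682 reads (0.24). *Nars* (asparagine, 120 and 140 reads), *Cars* (cysteine, 28 and 36 reads) and *Wars* (tryptophan, 53 and 43 reads) had intervals that include 0.

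Phenylalanyl-tRNA synthetase is built from 2 kinds of subunit. *Farsa*, which encodes the α subunit, had 654 reads in WT and 719 in KO. *Farsb*, which encodes the β subunit, had 1 read in each library, below the 3 reads (0.451 CPM in WT and 0.485 CPM in KO) taken as the smallest level shown, so its change could not be measured at this depth. The low count of *Farsb* is common to both genotypes.

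**Figure D2:**
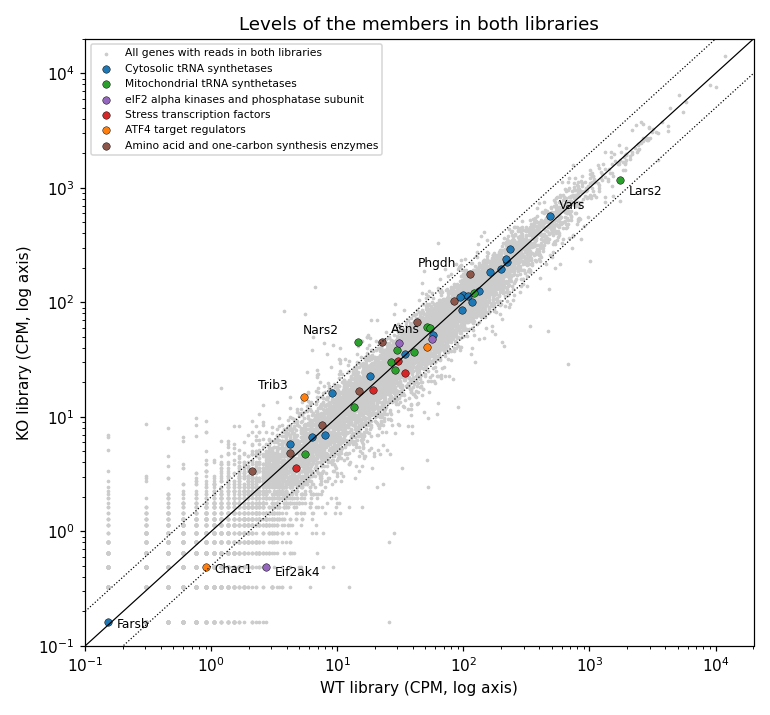
Level of each gene in the WT library (CPM, log axis) against the KO library (CPM, log axis), for all genes with reads in both libraries (grey) and for the 49 members (colored by role). The solid line marks equal levels and the dotted lines a 2-fold change; most members lie close to the solid line, *Nars2* and *Trib3* lie above the upper dotted line, and *Eif2ak4* lies below the lower one.

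Among the mitochondrial synthetase genes, *Nars2* stood apart. *Nars2*, which encodes the mitochondrial asparagine enzyme and lies on chromosome 7 of GRCm38 from 96950839 to 97064758, had 97 reads (14.6 CPM) in WT and 279 reads (45.1 CPM) in KO. This was 3.08-fold higher in the KO library, a log2 ratio of 1.62 with a 95% interval of 1.29 to 1.98 that lies wholly past 2-fold. Its cytosolic counterpart *Nars* had a log2 ratio of 0.33 (interval -0.04 to 0.69), so the 2 intervals do not overlap. The other 10 mitochondrial genes lay between -0.56 and 0.36. *Cars2* (cysteine, 197 and 235 reads, log2 ratio 0.36) and *Sars2* (serine, 345 and 380 reads, 0.24) had intervals above 0, that of *Sars2* only without the length correction. Those of *Aars2*, *Ears2*, *Hars2*, *Iars2*, *Mars2*, *Rars2* and *Vars2*, the enzymes for alanine, glutamate, histidine, isoleucine, methionine, arginine and valine, include 0.

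*Lars2*, the mitochondrial leucine enzyme, carried more reads than any other member. The reason for this high count was not tested, so it is not known whether all of its reads come from *Lars2* mRNA. It had 11595 reads (1744 CPM) in WT and 7311 reads (1182 CPM) in KO, a log2 ratio of -0.56 (interval -0.60 to -0.52). It ranked 59 among all genes by WT reads, and it held 81.8% of the mitochondrial synthetase reads in WT and 73.1% in KO. The group sum therefore follows this gene: the 11 genes took 0.213% of the WT and 0.162% of the KO reads, a log2 ratio of -0.40, and without *Lars2* they took 0.0388% and 0.0434%, a log2 ratio of 0.16 (interval 0.08 to 0.24). This second sum includes *Nars2*, which had 97 of its 2583 WT reads and 279 of its 2687 KO reads, and follows it in part. Of the 10 genes in it, 5 had a log2 ratio above 0 and 5 below. The median over the 11 genes was -0.02, which turns to 0.01 with TMM normalization and to 0.17 with a correction for transcript length.

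Of the genes that set eIF2α phosphorylation, *Eif2ak4*, which encodes the uncharged-tRNA sensor GCN2, had 18 reads (2.71 CPM) in WT and 3 reads (0.485 CPM) in KO. Its log2 ratio was -2.30, and with so few reads the interval ran from -4.89 to -0.70; it no longer counted as lower when at least 10 reads were asked for in each library. *Eif2ak3*, which encodes PERK, had 377 and 298 reads, a log2 ratio of -0.23 (interval -0.46 to -0.01). *Ppp1r15a*, which encodes GADD34, the inducible subunit of the phosphatase that removes the phosphate from eIF2α, had 204 and 271 reads, a log2 ratio of 0.51 (interval 0.25 to 0.78). The interval of *Eif2ak3* includes 0 with TMM normalization and with the length correction (-0.09), whereas that of *Ppp1r15a* stays above 0 in both (0.54 and 0.45).

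*Atf4* mRNA was at nearly the same level in both libraries, with 202 reads (30.4 CPM) in WT and 191 reads (30.9 CPM) in KO. Its log2 ratio was 0.02, with an interval of -0.27 to 0.32 that leaves out a 2-fold change in either direction. *Ddit3*, which encodes the stress factor CHOP, had 127 and 106 reads (log2 ratio -0.16, interval -0.54 to 0.23). *Atf5*, a relative of *Atf4*, had 31 and 22 reads (-0.38, interval -1.25 to 0.44). *Xbp1*, the transcription factor of the unfolded protein response, had 229 reads in WT and 149 in KO, a log2 ratio of -0.51 (interval -0.82 to -0.21). Without the length correction it was the only member of this group with a difference past the counting error. After that correction the interval of *Ddit3* also lay below 0 (-0.44, interval -0.82 to -0.05). All 4 log2 ratios were then below 0, and the intervals of *Atf4* and *Atf5* included 0.

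The regulators encoded by ATF4 target genes differed in direction. *Trib3*, which encodes a pseudokinase that feeds back on ATF4 and lies on chromosome 2 from 152337425 to 152344060, had 36 reads (5.41 CPM) in WT and 93 reads (15.0 CPM) in KO, 2.75-fold higher in the KO library. Its log2 ratio was 1.46, with an interval of 0.90 to 2.07. *Sesn2*, which encodes an inhibitor of mTORC1 that senses leucine, had 340 and 251 reads (-0.33, interval -0.57 to -0.09). *Chac1*, which encodes an enzyme that degrades glutathione, had 6 and 3 reads, too few to show a change.

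All 8 enzymes of amino acid and one-carbon synthesis had a log2 ratio above 0, where 48.6% of all genes did. Their median was 0.47, and 4 of them had an interval above 0, where 23.5% of all genes did. With the length correction 3 of them did, without *Mthfd2* (0.15). *Asns*, asparagine synthetase (chromosome 6 from 7675165 to 7693209), had 150 reads (22.6 CPM) in WT and 276 reads (44.6 CPM) in KO, 1.98-fold higher in the KO library. Its log2 ratio of 0.98 (interval 0.69 to 1.28) stood just short of 2-fold and passed it, at 1.01, with TMM normalization. Of the serine synthesis pathway, *Phgdh*, which encodes its first enzyme, had 752 and 1086 reads (0.63, interval 0.50 to 0.77) and *Psph*, its last, had 284 and 418 reads (0.66, interval 0.44 to 0.88). *Psat1*, the step between them, had 50 and 53 reads and a log2 ratio of 0.19, with an interval of -0.40 to 0.78 that overlaps both. *Mthfd2*, the mitochondrial folate enzyme strongly induced in growing T cells, had 557 and 638 reads (0.30, interval 0.13 to 0.47). *Shmt2*, which passes the carbon of serine to folate, had 99 and 105 reads, and the proline synthesis genes *Aldh18a1* and *Pycr1* had 28 and 30 reads and 14 and 21 reads, all with intervals that include 0. Summed, the 8 genes took 0.0291% of the WT reads (1934 reads) and 0.0425% of the KO reads (2627 reads), a log2 ratio of 0.55 (interval 0.46 to 0.63).

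The 9 genes whose windows hold the core of the ATF4 element had log2 ratios on both sides of 0. The 8 of them with at least 10 reads, all but *Chac1*, ran from -0.21 (*Tars*) to 1.46 (*Trib3*) with a median log2 ratio of 0.29. The 31 members whose windows lack it had a median of 0.03. These sets also differ in role, as no mitochondrial synthetase gene is among the 8. The part of the element in the difference was not tested. *Trib3*, *Asns* (0.98) and *Pycr1* (0.67) stood at the top, followed by *Aars* (0.33), *Yars* (0.24), *Gars* (0.13) and *Iars* (-0.04). *Pycr1* had only 14 and 21 reads, with an interval of -0.35 to 1.78. *Nars2* and *Phgdh*, which were also higher in the KO library, have no such letters in their windows.

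Other genes of these pathways were taken from lists written by name. The counts below stand beside the shares of all genes with at least 10 reads. Of these, 3.75% were higher and 7.94% lower in the KO library by at least 2-fold. Their intervals lay above 0 for 23.5% and below 0 for 25.0%. Of 18 further tRNA charging genes, 16 had at least 10 reads and 0 were past 2-fold in either direction. The median log2 ratio of the 16 was 0.19, with 2 intervals below 0 and 4 above it. Of 17 subunits and regulators of eIF2 and eIF2B, all had enough reads, 0 were past 2-fold and the median was 0.09. Intervals lay below 0 for 2 of these genes and above 0 for 7. Of 22 genes of the endoplasmic reticulum stress response driven by XBP1 and ATF6, 0 were past 2-fold, with 6 intervals below 0 and 6 above it, and a median of 0.03. Of 18 further serine, one-carbon and proline genes, 15 had enough reads and 1 was past 2-fold: *Prodh*, which degrades proline, with 4 and 16 reads and a log2 ratio of 1.98, named after its value was seen. The median of the 15 was 0.25, with 2 intervals below 0 and 8 above it. Of 24 further genes linked to ATF4, 17 had enough reads, 1 was higher and 2 were lower by at least 2-fold, and the median was -0.06. Intervals lay below 0 for 5 of the 17 and above 0 for 4. The transporter genes *Slc1a4* and *Slc1a5*, which import small neutral amino acids and glutamine, differed in opposite directions. *Slc1a4* had 46 and 144 reads (log2 ratio 1.74, interval 1.26 to 2.26), and *Slc1a5* had 3893 and 1344 reads (-1.43, interval -1.52 to -1.34). *Stc2*, which encodes a secreted glycoprotein and was also named after its value was seen, had 13 reads in WT and 0 in KO. Set against 3 reads in the KO library, its WT level was 4.03-fold higher, without the counting error of the 13 reads. Its counting interval lay below a log2 ratio of -1.50.

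Log2 ratios in these libraries were lower for longer transcripts. Across the 10792 genes with at least 10 reads and an annotated length, Spearman's rho was -0.37, which is a description over genes that share the same 2 libraries. A loess curve of this trend took values from -0.53 to 0.28 at the lengths of the members, and the median length was 3065 bases for the members and 3318 bases for all such genes. With the curve taken off, *Nars2* stood at 1.68, *Trib3* at 1.31 and *Eif2ak4* at -2.06, all still past 2-fold, and no other member was. Of all 10792 genes, 3.57% were then higher and 6.78% lower by at least 2-fold. *Asns* stood at 0.83, *Psph* at 0.61 and *Phgdh* at 0.46, *Lars2* at -0.49 and *Xbp1* at -0.66. The median of the 8 synthesis enzymes was then 0.35 and that of the cytosolic synthetases 0.05. Values near 0 changed sign, *Atf4* to -0.13 among them. The interval then lay above 0 for 15 members and below 0 for 7, where it did for 23.5% and 20.9% of all genes. Those of *Eif2ak3*, *Gars*, *Hars*, *Lars*, *Mthfd2*, *Sars2* and *Tars* came to include 0, those of *Eprs*, *Iars2* and *Vars2* moved above 0, and those of *Dars*, *Ddit3* and *Rars2* moved below 0.

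**Figure D3:**
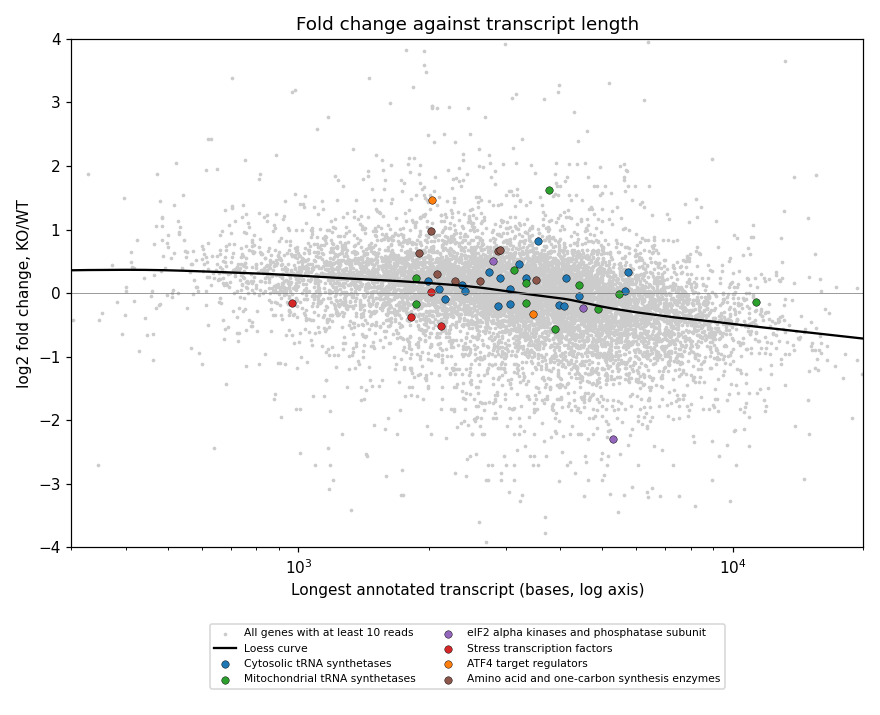
Log2 ratio (KO/WT) against the length of the longest annotated transcript (bases, log axis) for genes with at least 10 reads (grey), with the members colored by role and the loess curve in black. The curve falls from left to right, and *Nars2* (1.62), *Trib3* (1.46) and *Eif2ak4* (-2.30) lie far from it.

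The level of a gene in these tables also went with the number of its curated RefSeq transcripts. Per length, as reads per kb of the longest transcript and per 1000000 reads over both libraries, genes with 1 curated transcript had a median of 7.96 (n = 7174), those with 2 a median of 3.12 (n = 2835) and those with 3 or more a median of 1.80 (n = 2781). The same order was seen in the cytosolic synthetases: the 11 genes with 1 curated transcript lay between 17.8 and 127 with a median of 44.6, and the 9 with 2 or more lay between 0.0765 (*Farsb*) and 59.5 (*Dars*) with a median of 3.47. *Farsb*, *Cars*, *Mars*, *Sars* and *Wars*, the 5 cytosolic members with the fewest reads, all have at least 2. How reads that fit several transcripts or related genes were counted is not given in the sources used here, and its part in these levels was not tested. Reads of different genes are therefore not read as amounts of RNA here. The fold change of a gene compares the same gene in both libraries, but the part of this counting in the fold changes was not tested either.

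**Figure D4:**
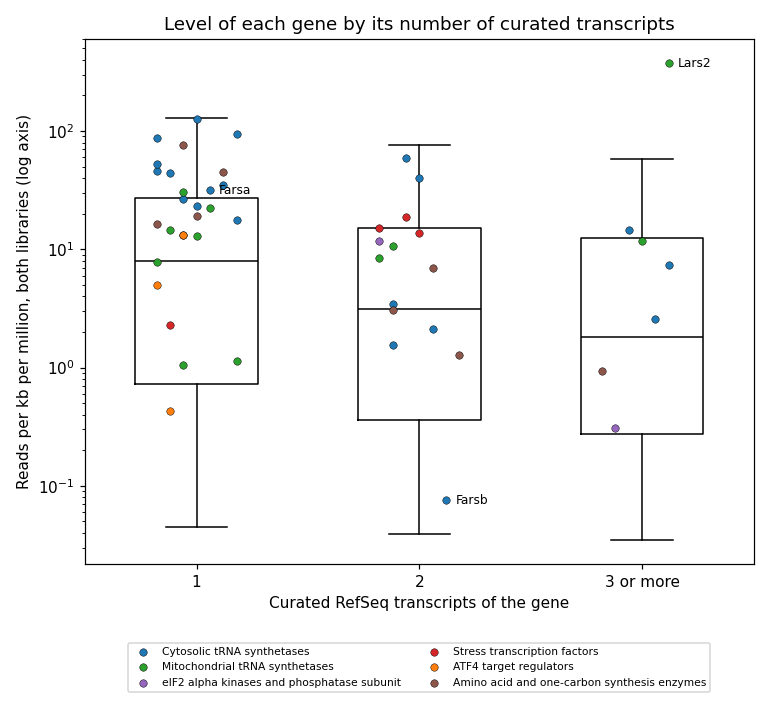
Reads per kb and per 1000000 reads over both libraries (log axis) by the number of curated RefSeq transcripts of the gene. Boxes give the median and quartiles of all genes and whiskers the 5th to the 95th percentile, and points are the members; the medians of all genes fall from 7.96 to 1.80, and *Farsb* lies far below *Farsa*.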

How the data were processed

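According to the methods, the authors mapped the RNA-seq reads with SOAP2 to mm10. They deposited 1 table per library, which holds the raw counts of uniquely assigned reads of each gene. The annotation and any use of strand are not given in the sources used here. The submitters' processing notes also name bcl2fastq, HTSeq, Bowtie and SICER 1.1 without roles. Genes without reads are not listed and were given 0 reads. The ChIP-seq samples were not analysed here.

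Counts were scaled to the library totals. With 1 library per genotype there are no residual degrees of freedom among samples, so edgeR's quasi-likelihood test could not be fitted, no p-value is given, and genes were counted past a 2-fold change among those with at least 10 reads over both libraries. Intervals (SciPy 1.17.1) treat reads as independent molecules. Alternatives used TMM from edgeR 4.0.16, size factors from DESeq2 1.42.0, upper-quartile scaling, 5 added to each count, other filters and thresholds, and a loess curve against the longest GENCODE M21 transcript (statsmodels 0.14.6, span 0.3), known for 99.2% of the genes. Gene positions and promoter windows came from RefSeq for GRCm38.p6, the assembly behind mm10. The calculations were tested on simulated data. The members and gene lists were chosen with earlier results of these data known. Named genes were every member and, from the other lists, those past 2-fold with at least 50 reads in the higher library, at most 3 per list and direction. Protein sequences were not used here. The matched sequence of *Aars* is not reported here.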

Additional observations from a re-analysis of the deposited data

How the results depend on the processing

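The 3 other scalings shifted every log2 ratio by the same amount, 0.025 with TMM, 0.011 with DESeq2 size factors and -0.008 with upper-quartile scaling. The count of members lower by at least 2-fold (1, *Eif2ak4*) fell to 0 when at least 10 reads were asked for in each library and to 0 when the whole counting interval had to lie past 2-fold. The count of members higher by at least 2-fold (2) was 3 with TMM normalization, which added *Asns*, 1 (*Nars2*) when the whole interval had to lie past 2-fold, and 7 at 1.5-fold, where 10.8% of all genes were higher and 17.7% lower. Medians of all members, of both synthetase groups and of the synthesis enzymes kept their direction under the alternatives run for them, except that the mitochondrial median (-0.02) changed sign with TMM (0.01) and with the length correction (0.17). Of 245 values of single members under the scalings, 5 added to each count and the length correction, 235 stayed within their counting interval. The other 10 came from the length correction, which also changed the sign of 7 members, all of which had uncorrected values between -0.14 (*Mars2*) and 0.10 (*Farsb*). Chosen after seeing the data, the same scalings and the length correction were applied to the counting intervals: 7 members lay below 0 and 16 above it, 5 and 16 with TMM (*Eif2ak3* and *Lars* were lost), and 7 and 15 with the length correction. No paired analysis was possible because each genotype had 1 library, and for the same reason no replicate could be left out. The planned comparison of protein sequences between synthetase pairs was not run. Depth limits *Farsb*, *Chac1*, *Eif2ak4* and *Pycr1* most.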

Other observations

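The nearest listed genes on either side of *Nars2*, *Trib3*, *Eif2ak4* and *Asns* were looked up after the values of these members were seen. *Tenm4*, which encodes a teneurin, a large transmembrane protein, lies 39.7 kb from *Nars2* on chromosome 7 (96171244 to 96911093) and had 1 read in WT and 17 reads in KO, a log2 ratio of 3.65 with a 95% counting interval of 1.52 to 9.58. On the other side, *Gab2* had 4 and 2 reads. The neighbors of *Trib3* on chromosome 2, *Rbck1* (140 and 129 reads) and *Sox12* (262 and 217 reads), had log2 ratios of -0.01 and -0.17. *Srp14*, which lies 608 bases from *Eif2ak4*, had 573 and 566 reads and a log2 ratio of 0.09, and *C1galt1*, 152 kb from *Asns*, had 149 and 62 reads and a log2 ratio of -1.15 (interval -1.61 to -0.72). *Gpr176*, on the other side of *Eif2ak4*, had 2 reads in each library, and *Acn9*, on the other side of *Asns*, had 33 and 28. With 1 library per genotype these values have no replicate check.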
